A study of Mus musculus with 26 samples.

Results

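Ly6h, Cdh22, Tmem215, Lamp5, Lhfp (now also written Lhfpl6) and Sphkap are 6 of the 18193 genes read in 26 amacrine cells of the mouse retina, with 1 Affymetrix 430 2.0 array per cell. They were chosen by their own signals in these cells, as genes found mainly where Gad1, the gene for an enzyme that makes GABA, was not, so the values that relate them to Gad1 are given as a description and without a test. Each gene was read from the probe set with its highest mean log2 signal, and detection in a cell meant a signal of 1000 or more, which is 2 times the trimmed mean of every array. At that level Gad1 was detected in 11 cells and Slc6a9, the gene for a glycine transporter, in 14 of the 26. Only 1 cell had both, and 2 had neither. A second probe set passed 1000 in 3 cells for Gad1 and in 10 for Slc6a9, all of them among the cells already counted.

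Amacrine cells are interneurons of the retina's inner layers that release GABA or glycine, and their many classes differ in shape and in the genes they use. The study's design text gives electroporation of mouse retinas at P0 (the day of birth), in vivo or in a dish, which does not go with the age label E19 of 1 cell. The plasmid carried a reporter in which green fluorescent protein was driven by the Ndrg4 promoter (pNdrg4) or the Synapsin promoter (pSynapsin), and cells were picked one at a time by that fluorescence; no allele or treatment of the mice was labelled. The youngest cells were a single pSynapsin cell with the age label E19 and, at postnatal day 4 (P4), 2 pNdrg4 cells; these retinas had spent 4 days in culture. The largest group was 10 pNdrg4 cells of P5 for which the labels state no culture. Another 5 pNdrg4 cells of P5, and 4 pSynapsin cells of that age, were from retinas kept in culture for 5 days. The oldest were 2 cells of each reporter at P8, after 8 days in culture. No label names an animal, a retina or a dish, so each group counts as 1 sample. No p-values were computed, an SD is the spread over cells, and intervals for shares of cells (exact Clopper-Pearson, 95%) cover counting error only. What fluoresces depends on each promoter and on which cells took up the plasmid, so a group is a pick of labelled cells and not a count of cells in the retina.

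Pax6, a homeodomain factor of amacrine cells, was detected in 26 of 26 cells with signals from 2034 to 62673. None of 5 microglial genes was detected in any cell, while rod and Muller glia genes were found at varied levels. Summed signals of these 2 types are given beside the group comparisons. Bipolar, ganglion and vascular genes were found in some cells, with highest summed signals of 25895, 18340 and 10068. Genes detected per cell ran from 1909 to 4180. The median was 3462 in the 15 cells without Gad1 and 2432 in the 11 with it, and no member's share was corrected for that difference. Its part in the results was not tested.

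The proteins of these genes have different jobs at and beneath the cell membrane. Ly6h is a small protein held on the outer face by a lipid anchor and belongs to the Ly6 and uPAR family, some members of which bind nicotinic acetylcholine receptors. Cdh22 is a classical cadherin, a calcium-dependent adhesion molecule whose inner end is coupled to the actin skeleton by catenins. Tmem215 is a transmembrane protein about which less is known, and Lhfp belongs to a family of proteins that cross the membrane several times. Lamp5 is the brain-enriched relative of the lysosomal membrane proteins Lamp1 and Lamp2 and is widely used as a marker of a class of cortical interneurons. Sphkap is an anchoring protein for cyclic AMP-dependent protein kinase (PKA) and lies inside the cell, so "surface marker" suits it poorly. The arrays measured RNA, and where the proteins lie was not measured.

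The RefSeq promoter table used here (GRCm38.p6) had entries matched to 5 of the 6 members, all but Ly6h. Cdh22 and Tmem215 were the pair with the highest phi of detection among the 6, a coefficient explained below. Lamp5 and Lhfp had the same relation to Gad1. The 250 bases before the first listed start are shown for Cdh22, Tmem215, Lamp5 and Lhfp. They lie at chr2:165234738-165234987 on the minus strand (Cdh22), chr4:40471930-40472179 on the plus strand (Tmem215), chr2:136052089-136052338 on the plus strand (Lamp5) and chr3:53041297-53041546 on the plus strand (Lhfp). All read 5′ to 3′ on the gene's strand, and capitals mark E boxes (CANNTG, which reads the same on both strands), the sites of basic helix-loop-helix factors such as Nhlh2 and Tcf4.
Cdh22: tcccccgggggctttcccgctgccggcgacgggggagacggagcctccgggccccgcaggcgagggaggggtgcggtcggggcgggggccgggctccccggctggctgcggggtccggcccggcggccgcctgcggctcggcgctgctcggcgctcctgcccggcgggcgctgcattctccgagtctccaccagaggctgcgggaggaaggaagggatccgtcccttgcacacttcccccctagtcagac
Tmem215: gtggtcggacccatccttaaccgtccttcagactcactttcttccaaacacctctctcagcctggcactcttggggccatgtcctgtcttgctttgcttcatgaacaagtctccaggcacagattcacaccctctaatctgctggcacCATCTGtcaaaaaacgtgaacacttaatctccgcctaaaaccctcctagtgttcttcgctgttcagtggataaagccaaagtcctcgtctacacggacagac
Lamp5: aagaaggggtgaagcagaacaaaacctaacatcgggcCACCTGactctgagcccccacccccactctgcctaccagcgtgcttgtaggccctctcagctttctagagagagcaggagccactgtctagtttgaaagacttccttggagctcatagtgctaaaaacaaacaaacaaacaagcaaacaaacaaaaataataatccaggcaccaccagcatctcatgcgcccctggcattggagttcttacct
Lhfp: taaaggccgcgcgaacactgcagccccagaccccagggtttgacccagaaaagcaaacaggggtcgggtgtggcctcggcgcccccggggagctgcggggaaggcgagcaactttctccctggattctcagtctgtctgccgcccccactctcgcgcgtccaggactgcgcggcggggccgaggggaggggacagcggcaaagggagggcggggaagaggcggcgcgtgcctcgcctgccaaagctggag
E boxes numbered 0 before Cdh22 and Lhfp, and 1 each before Tmem215, Lamp5 and Sphkap; 66.2% of 32851 windows of this length held at least 1. The letters GCCNNNGGC, an AP-2 site, were found on either strand once before Cdh22 and once before Lamp5, beside 13.7% of all windows. Early B-cell factor sites, CCCNNGGG on either strand, numbered 3 before Cdh22 and 3 before Lhfp, several of which overlap in 1 run of C and G, beside at least 1 in 11.8% of all windows, and 0 before Tmem215, Lamp5 and Sphkap at their first listed start. The GC content was 77.6% for Cdh22 and 69.6% for Lhfp, beside a median of 52.4% over all windows. A match is a description of letters and not a bound site.

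**Figure D1:**
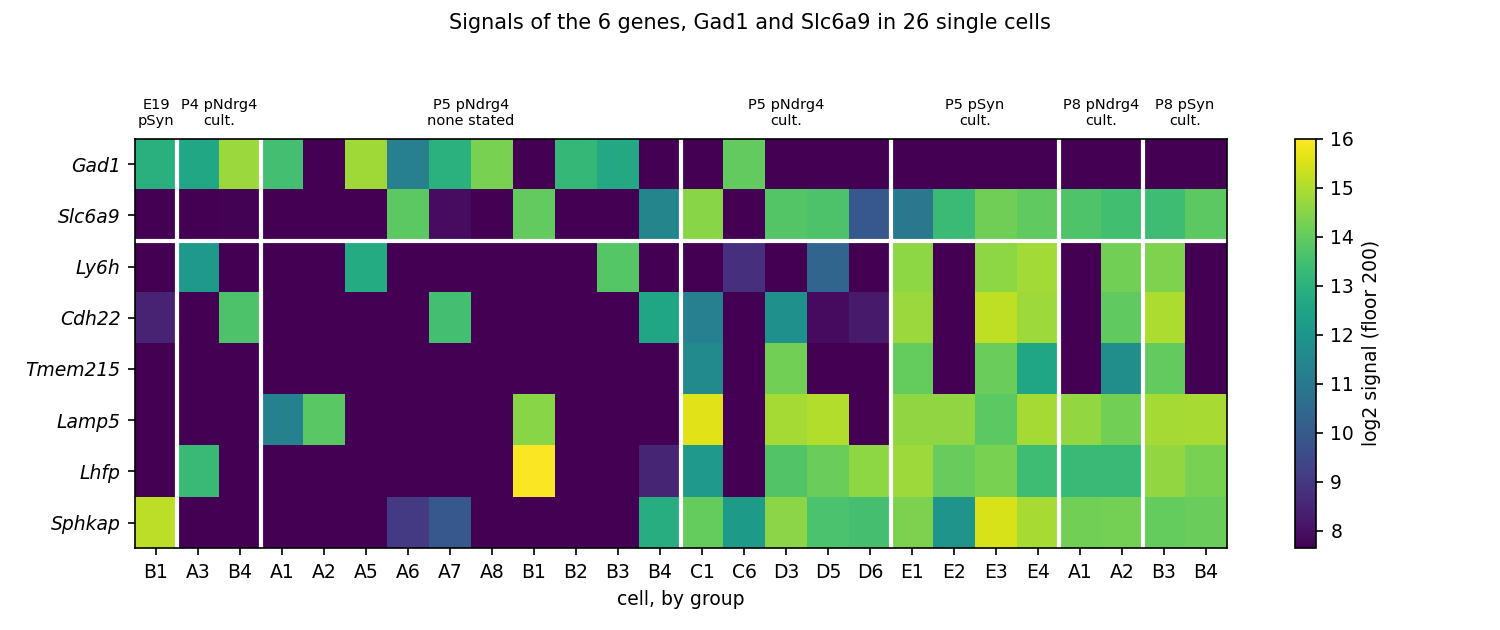
Log2 signal (colour, raised to a floor of 200) of Gad1, Slc6a9 and the 6 genes (vertical axis) in each of the 26 cells (horizontal axis), with white lines between groups. The 5 cells with all 6 genes are E1, E3 and E4 of the P5 pSynapsin group, A2 of the P8 pNdrg4 group and B3 of the P8 pSynapsin group.

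Ly6h, the lipid-anchored member, was detected in 9 of 26 cells and followed Gad1 least. Its signals were 9.02 in the E19 cell, 4516 and 29.1 in the P4 cells, and from 8.03 to 14076 with a median of 58.8 in the 10 P5 cells with no culture stated. The cultured P5 pNdrg4 cells gave 63.6, 441, 13.8, 1333 and 70.2, and the P5 pSynapsin cells gave 24240.4, 11.5, 24573 and 29447. The P8 cells gave 66.8 and 19107 with pNdrg4 and 21626 and 10.5 with pSynapsin. High and low cells thus stood side by side in all 6 groups of more than 1 cell, and the groups overlapped throughout. Cells with Gad1 held Ly6h in 3 of 11 cases (27.3%, interval 6.02 to 61.0%) and cells without it in 6 of 15 (40.0%, 16.3 to 67.7%). The 3 cells with both genes were A3 at P4 and A5 and B3 of the P5 cells with no culture stated, at Ly6h signals of 4516, 7020 and 14076. These intervals overlap, as do those of Cdh22 and of Tmem215 below. The members were chosen by these values, so nothing is read from the overlap.

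Cdh22, the cadherin, was detected in 10 of 26 cells. The E19 cell gave 352, the P4 cells gave 195 and 12918, and the 10 P5 cells with no culture stated ran from 27.8 to 11733 with a median of 121. Cultured P5 pNdrg4 cells had 2518, 131, 3672, 240 and 305, and P5 pSynapsin cells had 27697, 146, 37492 and 27795. At P8 the signals were 149 and 15917 with pNdrg4 and 66.6 and 32413 with pSynapsin. The 5 cells at 15917 or above were those that held all 6 genes, while the cultured P5 pNdrg4 cells that passed the threshold did so at lower signals. Cdh22 was found in 2 of 11 cells with Gad1 (18.2%, 2.28 to 51.8%) and in 8 of 15 without it (53.3%, 26.6 to 78.7%). Both cells with Cdh22 and Gad1 were well above the threshold, at 12918 (B4 at P4) and 11733 (A7 at P5, no culture stated).

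Tmem215, a transmembrane protein, was detected in 7 cells, all with Slc6a9 and none with Gad1. Its signal was 26.5 in the E19 cell, 33.8 and 13.7 in the P4 cells and between 2.68 and 115 in the 10 P5 cells with no culture stated, with a median of 21.8. It was 3115, 1.04, 19277, 1.48 and 5.70 in cultured P5 pNdrg4 cells, and 16734, 2.45, 17830 and 6153 in P5 pSynapsin cells. P8 cells had 2.10 and 3468 with pNdrg4, and 16202 and 2.38 with pSynapsin. No cell fell between 115 and 3115, so the split into cells with and without Tmem215 did not turn on the threshold. The count was 0 of 11 cells with Gad1, for which the limit of 3 counts in 11 allows a share of up to 27.3% (exact upper bound 28.5%), and 7 of 15 without it (46.7%, 21.3 to 73.4%). Of the 3 probe sets for Tmem215 the other 2 were detected in 0 cells, with highest signals of 128 and 149, so the gene rests on 1 probe set.

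Lhfp, the member with several membrane passes, was detected in 14 cells. It gave 65.0 in the E19 cell and 9936 and 138 in the P4 cells, and ran from 2.40 to 63203 with a median of 104 in the 10 P5 cells with no culture stated. Signals were 4493, 60.7, 13494, 18014 and 24534 in the cultured P5 pNdrg4 cells and 27839, 17077, 20448 and 10928 in the P5 pSynapsin cells. P8 cells had 10089.5 and 10201 with pNdrg4, and 25810.5 and 20431 with pSynapsin. All 8 cells of the P5 pSynapsin and P8 groups were at 10089.5 or above, whereas B1 was the single cell above 1000 among the 10 with no culture stated. Lhfp was found in 1 of 11 cells with Gad1 (9.09%, 0.230 to 41.3%), the P4 cell A3, and in 13 of 15 without (86.7%, 59.5 to 98.3%).

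Lamp5, the relative of lysosomal membrane proteins, was also detected in 14 cells. The E19 cell had 76.0, the P4 cells had 7.02 and 133, and the 10 P5 cells with no culture stated ran from 7.31 to 23192 with a median of 68.0. The cultured P5 pNdrg4 cells gave 50812, 4.41, 29854, 33534.5 and 17.5, and the P5 pSynapsin cells 24916, 24956, 15370.1 and 29997. At P8 the values were 25577 and 19049 with pNdrg4 and 30197 and 30996 with pSynapsin. Lamp5 was at 14841 or above in every one of the 13 cells that had it without Gad1. The share was 13 of 15 (86.7%, 59.5 to 98.3%) without Gad1 and 1 of 11 (9.09%, 0.230 to 41.3%) with it. That 1 cell, A1 of the P5 cells with no culture stated, had the lowest Lamp5 signal of the 14, at 2523. Lamp5 and Lhfp shared 12 of their 14 cells each.

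Sphkap, the kinase-anchoring member, was detected in 15 cells, the most of the 6. It was 36884 in the E19 cell, 9.77 and 35.1 in the P4 cells, and from 11.9 to 7324 with a median of 76.9 in the 10 P5 cells with no culture stated. It was 16687, 4664, 23857, 12804 and 11925 in cultured P5 pNdrg4 cells and 20828, 3993, 46652 and 30851 in P5 pSynapsin cells. P8 cells gave 19165 and 19594 with pNdrg4 and 16842.5 and 17314.5 with pSynapsin. Sphkap was thus found in all 13 cultured P5 and P8 cells, among them C6, which had Gad1 at 16149.5 and no other member. Over all cells it was detected in 2 of 11 with Gad1 (18.2%, 2.28 to 51.8%) and in 13 of 15 without (86.7%, 59.5 to 98.3%). A second probe set for Sphkap passed 1000 in only 1 cell, the E19 cell, at 1069.

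Few calls lay near the threshold. Just inside it was Ly6h in the cultured P5 pNdrg4 cell D5, at 1333. Just outside were Sphkap in A7 of the P5 cells with no culture stated, at 993, Sphkap in A6 of the same group, at 533, and Ly6h in the cultured P5 pNdrg4 cell C6, at 441. Slc6a9 in the cultured P5 pNdrg4 cell D6 was at 990, so that cell, with Lhfp and Sphkap, counts as having neither Gad1 nor Slc6a9.

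**Figure D2:**
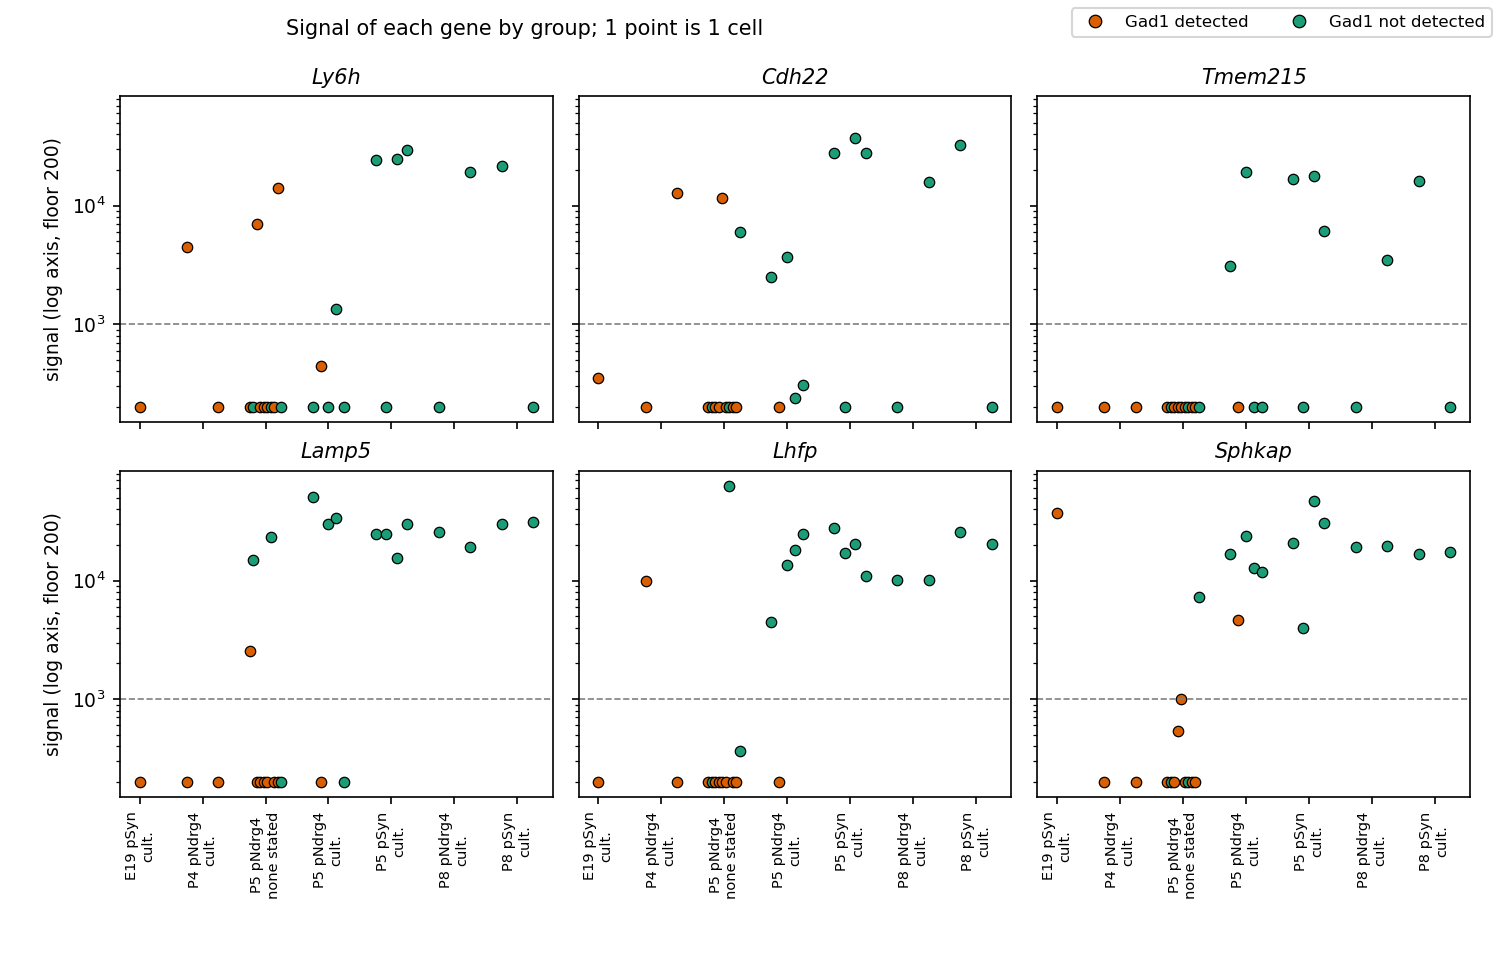
Signal (log axis, raised to a floor of 200) of each gene by group; 1 point is 1 cell, coloured by Gad1, and the dashed line is the detection threshold of 1000. Points gather at the floor or well above the threshold, and no Tmem215 point above the line is a cell with Gad1.

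The phi coefficient of detection, which is 1 when 2 genes are found in the same cells and -1 when they exclude each other, put these counts on 1 scale over the 26 cells. With Gad1 it was -0.77 for Lamp5, -0.77 for Lhfp, -0.68 for Sphkap, -0.52 for Tmem215, -0.36 for Cdh22 and -0.13 for Ly6h. With Slc6a9 it was 0.69 for Lamp5, 0.69 for Lhfp, 0.61 for Sphkap, 0.56 for Tmem215, 0.41 for Cdh22 and 0.19 for Ly6h. Thus 4 of the 6 members were at or below -0.5 with Gad1, beside 2.45% of the 7502 genes detected in at least 3 cells, and 4 of 6 were at or above 0.5 with Slc6a9, beside 2.2%. Detection in no cell with Gad1 was seen for 1 of 6 members, Tmem215, beside 7.53% of genes found in at least 3 cells and 1.05% of those found in at least 7. The members were chosen for this pattern, so nothing is read from these shares. Tmem215 lay close to the cut of -0.5: with each cell left out in turn its phi with Gad1 ran from -0.55 to -0.498. Gad1 and Slc6a9 had a phi of -0.77 with each other, as strong as that of Lamp5 or Lhfp with Gad1. Leaving out the P4 cell A3 or the P5 cell A1 with no culture stated raised the count of members found in no cell with Gad1 to 2, through Lhfp or Lamp5. The points share depth and group: 12 of the 15 cells without Gad1, and 4 of the 11 with it, came from retinas with a stated culture.

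**Figure D3:**
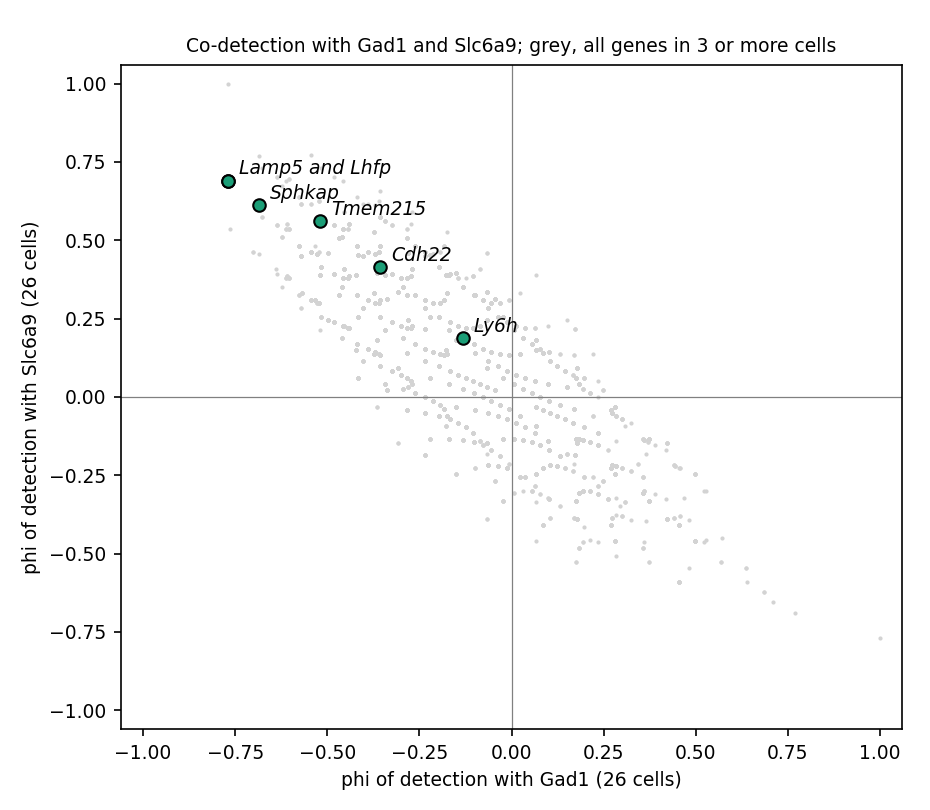
Phi of detection with Gad1 (horizontal axis) and with Slc6a9 (vertical axis) over 26 cells, for the 6 genes (green) and for all genes detected in at least 3 cells (grey). Lamp5 and Lhfp share the point at -0.77 and 0.69, and Ly6h lies nearest to 0 at -0.13 and 0.19.

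GABA can also be made by the enzyme of Gad2, and Gad2 was found in 7 of the 15 cells without Gad1. Phi with Gad2 was -0.08 for Lamp5, -0.08 for Lhfp, -0.01 for Sphkap, 0.04 for Tmem215, 0.10 for Cdh22 and 0.02 for Ly6h. The members were chosen by their relation to Gad1 and not to Gad2, so nothing is read from the weaker values here. Gad2 itself had a phi of 0.17 with Gad1. Slc32a1, the vesicle transporter that loads both GABA and glycine, was detected in 15 of 15 cells without Gad1 and in 7 of 11 with it. Slc6a5, the other glycine transporter, was found in 5 cells, none with Gad1, and Lhfp and Sphkap were each detected in all 5. These were all cultured cells without Gad1, of which Lhfp and Sphkap were each found in 12 of 12. Slc6a5 signals in the 5 were low, from 1345 to 2399. Gad2 was detected in 2 of the 5 cells that held all 6 members.

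Among the 6 genes, Lamp5, Lhfp and Sphkap were found in more cells (14, 14 and 15) than Ly6h, Cdh22 and Tmem215 (9, 10 and 7). Every one of the 7 cells with Tmem215 also held Cdh22, Lamp5, Lhfp and Sphkap. All 7 were cultured cells without Gad1, of which Lhfp and Sphkap were each found in 12 of 12, Lamp5 in 11 and Cdh22 in 7. Phi was 0.77 for Cdh22 with Tmem215, 0.69 for Lamp5 with Lhfp and 0.61 for Lhfp with Sphkap. It was 0.26 for Cdh22 with Lamp5 and 0.26 for Ly6h with Cdh22, and lowest for Ly6h with Sphkap, at 0.13. Tmem215 had 0.56 with Lamp5, 0.56 with Lhfp and 0.52 with Sphkap, above the 0.46 of Lamp5 with Sphkap. Ly6h had 0.35 with Lhfp, more than with Cdh22, so the pairs did not form separate sets. By number of members, 3 cells held none, 8 held 1, 4 held 2, 3 held 3, 1 held 4, 2 held 5 and 5 held all 6. Of the 11 cells with Gad1, 3 held none, 7 held 1 and 1 held 2. Each of the 11 cells with 3 or more members had Slc6a9 and lacked Gad1. The 3 cells with exactly 3 members (E2 of the P5 pSynapsin group, A1 of the P8 pNdrg4 group and B4 of the P8 pSynapsin group) held the same 3, Lamp5, Lhfp and Sphkap.

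**Figure D4:**
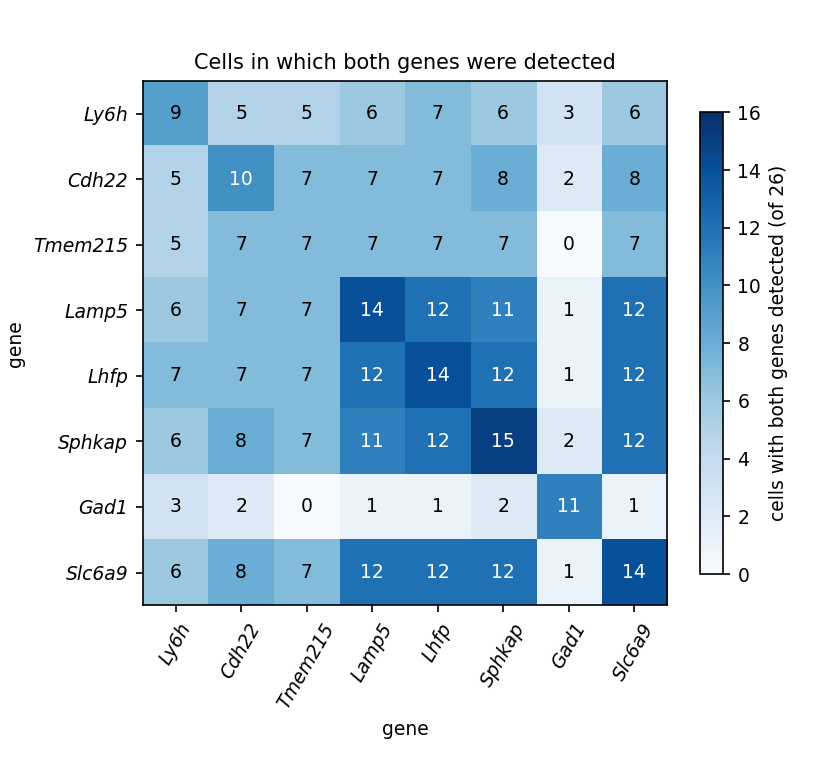
Number of cells, of 26, in which both genes of a pair were detected (both axes list genes); the diagonal gives each gene's own count. Tmem215 shared all 7 of its cells with Cdh22, Lamp5, Lhfp, Sphkap and Slc6a9, and 0 with Gad1.

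Cells with all 6 members also had other genes in common, named here after their values were seen and therefore given without a test. The 5 cells held from 3291 to 4180 genes each, and widely found genes such as Lamp1 and Ctnnb1 were also in 5 of 5. The share of all genes found in 5 of 5 is not given here, so nothing is read from such a count. Gabrb2, a GABA-A receptor subunit, was detected in 5 of these 5 cells, at 23817, 21456, 23038, 11478 and 17754 in E1, E3, E4, A2 and B3, and in 3 of the other 21. Ebf1, an early B-cell factor, was found in 5 of 5 and in 2 other cells, and Nhlh2 and Tcf4 were found in 5 of 5 as well, though they were also more widely found, in 13 and 16 of all 26 cells. The nicotinic receptor subunit gene Chrna4 was detected in 4 of the 5 and in no other cell. Tfap2b, an AP-2 factor found in 20 of the 26 cells, was detected in 1 of the 5, at 2231 in A2, and Tfap2a in 0 of 5. The 3 cells with Lamp5, Lhfp and Sphkap alone had Tfap2b at 11792, 17409 and 11017, and Gjd2, a gap junction gene, at 20698, 34051 and 22699.6, while Gjd2 in the 5 cells with all 6 members was between 24.6 and 937. Summed signals of 10 rod genes were 7584 to 47394 (median 13881) in the 5 cells and 2472 to 99559.5 (median 35864) in the other 9 cells with Slc6a9. Those of 8 Muller glia genes were 3053 to 13597.5 (median 7033) and 654 to 62706 (median 30778). Their part in these counts was not tested.

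Culture was compared within P5 pNdrg4 cells, 5 from cultured retinas against 10 with no culture stated. Sphkap, Lhfp, Lamp5 and Tmem215 were higher on average in the cultured cells, and Cdh22 and Ly6h differed by less than 2-fold with all cells in. Mean log2 signal of Sphkap was 13.59 ± 0.88 (SD, n = 5 cells) in culture and 8.54 ± 1.71 (SD, n = 10 cells) without, a difference of 5.05. For Lhfp the means were 12.44 ± 2.84 and 8.56 ± 2.61, a difference of 3.88, and for Lamp5 they were 12.16 ± 4.14 and 9.32 ± 2.81, a difference of 2.85. The gaps for Sphkap and Lhfp were wider than the SD of either group, and that for Lamp5 was smaller than the SD of the cultured cells. Even so, 0 of 6 members had every cultured cell above every other cell, beside 0.28% of the 7502 genes: Sphkap in B4 with no culture stated (7324) was above that in the cultured cell C6 (4664). Tmem215 had a difference of 2.11, with every cell of the other group at the floor, so that difference is shortened by the floor, and it was 0.99 without the cultured cell D3. Differences for Cdh22 and Ly6h were 0.67 and -0.35. Cdh22 ran from 0.05 without the cultured cell D3 to 1.20 without A7, and was above 1 without B4 (1.09), D5 (1.04) or C6 too; without C1 it was 0.19. Ly6h ran from -0.84 without D5 to 0.20 without B3.

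By the rule of a difference of at least 1 on the log2 scale, 4 of 6 members were higher in culture, beside 29.1% of the 7502 genes, and 0 were lower, beside 9.8%. The median difference was 2.48 over the members and 0.38 over all genes. Gad1 itself moved in this comparison, from detection in 7 of 10 cells to 1 of 5, so culture and class were mixed. Among cells without Gad1, Sphkap was found in 12 of 12 with culture stated (interval 73.5 to 100%), a pool of both reporters and of P5 and P8. It was found in 4 of 4 of these from the cultured P5 pNdrg4 group (39.8 to 100%). With no culture stated, all P5 pNdrg4, it was found in 1 of 3 (0.840 to 90.6%). Lhfp gave the same counts. Among cells with Gad1, Sphkap was found in 2 of 4 with culture stated and 0 of 7 with none, and Lamp5 in 0 of 4 and 1 of 7. Those 4 cells pool the ages E19, P4 and P5. With 3 cells without Gad1 and no culture stated, the intervals of these shares overlap and culture cannot be told apart from the class of the cells picked.

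Other values moved with the same groups. Genes detected per cell had a median of 3256 in the cultured group and 2362 in the other. Xist, the RNA of the inactive X chromosome, was detected in 5 of 5 cultured cells and in 0 of the 10 others, so that the groups differ in that respect too. Summed signals of 10 rod genes were 1021 to 5939 (median 2712) in the cultured cells and 376 to 61384 (median 9713) in the others, and 5 rod genes were lower by at least 1 and 0 higher. Those of 8 Muller glia genes were 654 to 20364 (median 5154) and 5505 to 62706 (median 24964), with 3 genes lower and 0 higher: Vim (-3.00), Car2 (-1.80) and Rlbp1 (-1.04). Summed signals of 7 ganglion genes were 216 to 18029 (median 3402) in the cultured cells and 269 to 18340 (median 483) in the others, with 2 genes higher and 0 lower. Of vascular genes 1 was higher, Kdr (1.70), and 0 lower. The part of depth, Xist and RNA of these other cell types in the differences was not tested.

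The P5 reporters were compared between 4 pSynapsin and 5 pNdrg4 cells, all cultured for 5 days. This comparison shares its 5 pNdrg4 cells with the culture comparison, so they are not independent. Ly6h and Cdh22, which differed little with culture, had the widest gaps here. Mean log2 signal of Ly6h was 12.91 ± 3.51 (SD, n = 4 cells) with pSynapsin and 8.42 ± 1.20 (SD, n = 5 cells) with pNdrg4, a difference of 4.49, and for Cdh22 the means were 13.09 ± 3.64 and 9.39 ± 2.01, a difference of 3.70. The large SDs of the pSynapsin group came from 1 cell, E2, in which both genes were low; the other 3 pSynapsin cells were above every pNdrg4 cell for both. Differences were 2.34 for Tmem215, 2.33 for Lamp5, 1.70 for Lhfp and 0.59 for Sphkap. Tmem215 came to 3.83 without E2, and without the pNdrg4 cell C6, the one with Gad1, Lamp5 came to 1.20 and Lhfp to 0.50; without D6 Lamp5 was also at 1.20. Sphkap came to 1.33 without E2, which made all 6 members higher by at least 1. It came to 0.15 without E3, 0.24 without C6 and 0.35 without E4.

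In all, 5 of 6 members were higher with pSynapsin by at least 1, beside 21.8% of the 7502 genes, and 0 were lower, beside 19.4%. None of the 6 had every pSynapsin cell above every pNdrg4 cell, beside 1.32%. The members' median difference was 2.34 and that of all genes 0.03. Lamp5 depended on how the middle of a group was taken, since its difference was -0.26 between group medians, and with medians 3 of 6 members were higher. Rod RNA moved with the reporters: the summed signal of 10 rod genes was 7584 to 70431 (median 17251) with pSynapsin and 1021 to 5939 (median 2712) with pNdrg4. Summed Muller glia signals were 5217 to 30778 (median 7492) and 654 to 20364 (median 5154). Xist was detected in 1 of 4 and 5 of 5 cells. Their part in the reporter differences was not tested.

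At P8, 2 pSynapsin cells were set against 2 pNdrg4 cells. In each pair 1 cell held all 6 members and the other held Lamp5, Lhfp and Sphkap alone, so the pairs had the same makeup. The differences were 0.09 for Ly6h, 0.51 for Cdh22, 1.11 for Tmem215, 0.47 for Lamp5, 1.18 for Lhfp and -0.18 for Sphkap. That put 2 of 6 at or above 1, beside 25.9% of genes, and 0 at or below -1, beside 25.6%. Lamp5 and Lhfp did not overlap between the pairs, with both pSynapsin cells above both pNdrg4 cells, as was so for 15.3% of genes. Sphkap did not overlap either, with both pNdrg4 cells above, as was so for 15.9% of genes. With 2 cells a side, 1 cell decided several of these values: the Tmem215 difference was -0.95 without the pNdrg4 cell A1, 3.17 without A2, -2.06 without the pSynapsin cell B3 and 4.28 without B4, and the count ran from 1 to 4 when each cell was left out in turn. Ly6h ran from -3.29 (without B3) to 3.47 (without B4) and Cdh22 from -3.16 to 4.18 without the same cells; without A1 they were -3.20 and -2.64, and without A2 3.38 and 3.67. Xist was detected in both pNdrg4 cells and in neither pSynapsin cell. Summed rod signals were 8977 to 99559.5 with pSynapsin and 35864 to 47394 with pNdrg4, and Muller glia signals 3053 to 23891 and 13597.5 to 32577. Their part in the differences was not tested.

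Age was compared within each reporter between P8 cells cultured for 8 days and P5 cells cultured for 5 days, so age and time in culture cannot be told apart. For pNdrg4 (2 against 5 cells) the differences were 2.51 for Ly6h, 1.41 for Cdh22, -0.05 for Tmem215, 2.27 for Lamp5, 0.87 for Lhfp and 0.65 for Sphkap. That made 3 of 6 members higher at P8, beside 27.4% of genes, and 0 lower, beside 21.1%. None had every P8 cell above every P5 cell, beside 5.47%. Without the P8 cell A2 the Ly6h and Cdh22 differences were -0.78 and -1.74, and 1 member was higher; without A1 they were 5.80 and 4.57. Lamp5 came to 1.14 without the P5 cell C6 and 1.14 without D6, and Cdh22 to 0.98 without C6. Tmem215 came to -2.11 without A2, 2.01 without A1 and 1.07 without D3, and Lhfp to -0.33 without C6, 1.40 without D6 and 1.29 without D5. Sphkap was at 0.30 without C6. Without the P5 cell D3 the count was 5. Summed rod signals did not overlap, at 35864 to 47394 at P8 and 1021 to 5939 at P5. Those of Muller glia genes were 13597.5 to 32577 and 654 to 20364. Their part in the differences was not tested.

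For pSynapsin (2 against 4 cells) the differences were -1.89 for Ly6h, -1.78 for Cdh22, -1.28 for Tmem215, 0.40 for Lamp5, 0.35 for Lhfp and -0.12 for Sphkap. None of the 6 was higher at P8 by at least 1, beside 25.6% of genes, and 3 were lower, beside 21.4%. Lamp5 alone had both P8 cells above every P5 cell, beside 6.54%. Without the P8 cell B4 the values of Ly6h, Cdh22 and Tmem215 turned to 1.49, 1.89 and 1.89. They were -5.27, -5.45 and -4.45 without the P8 cell B3 and -3.64, -3.59 and -2.77 without the P5 cell E2, and Tmem215 was at -0.64 without E1 and -0.61 without E3. Ly6h was at -1.24 without E4 and Cdh22 at -1.07 without E3. Lamp5, Lhfp and Sphkap were detected in every P8 cell and every P5 pSynapsin cell, and their values within pSynapsin differed by less than 1 between the ages, also with each cell left out in turn, when Sphkap ran from -0.86 (without E2) to 0.32 (without E3). Summed rod signals were 8977 to 99559.5 at P8 and 7584 to 70431 at P5, and Muller glia signals 3053 to 23891 and 5217 to 30778. Their part in the differences was not tested.

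**Figure D5:**
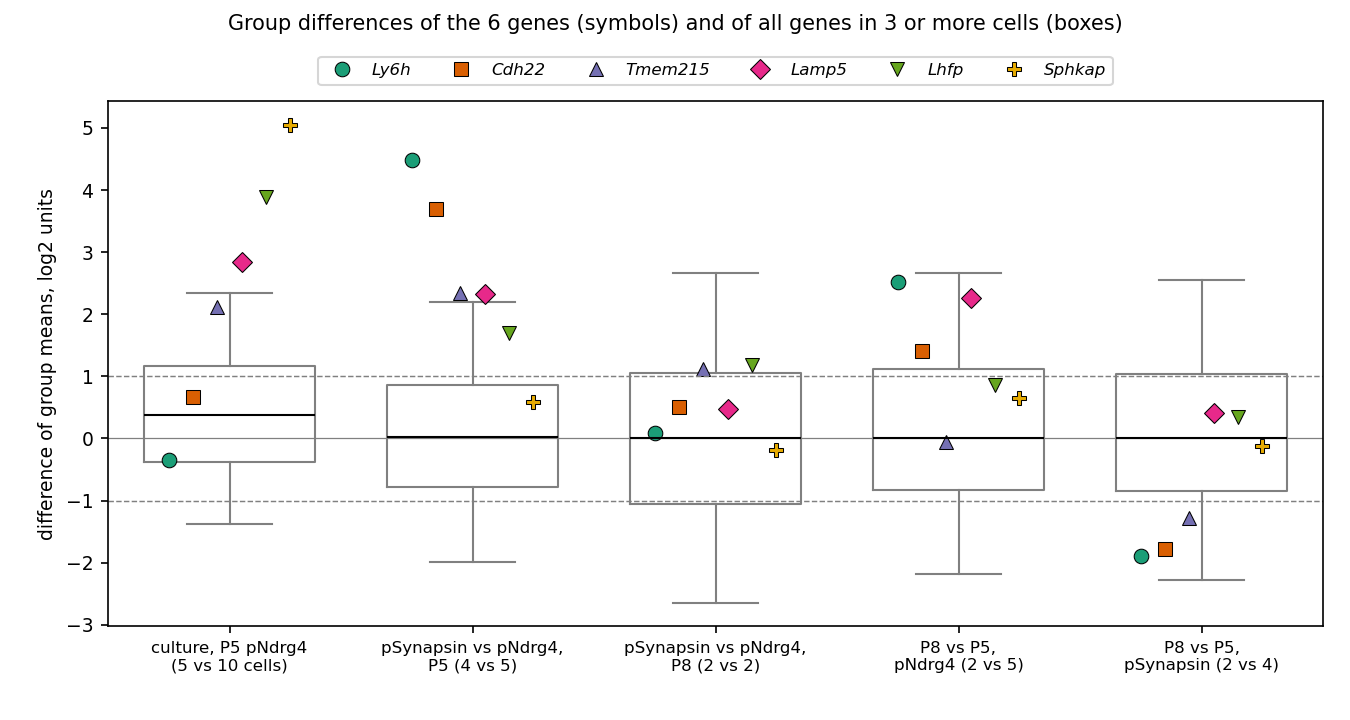
Differences of group means of log2 signal (floor 200) for the 6 genes (symbols) in 5 comparisons, with the number of cells per side; boxes give the quartiles and median of the 7502 genes detected in at least 3 cells, whiskers their 5th to 95th percentiles, and dashed lines a difference of 1 either way. The symbols run from -0.35 (Ly6h) to 5.05 (Sphkap) for culture and from 0.59 (Sphkap) to 4.49 (Ly6h) for the P5 reporters.

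Transcription factors known from amacrine cells were set beside the members as well. For these and the lists that follow, the shares of all genes are 29.1% higher and 9.8% lower with culture, and 21.8% higher and 19.4% lower with pSynapsin at P5. Of 29 measured, 22 were detected in at least 3 cells, and of these 7 were higher and 9 lower with culture (median -0.50) while 5 were higher and 5 lower with pSynapsin at P5 (median 0.06). Ebf1 was found in 6 of the 7 cells with Tmem215 and had a phi of 0.80 with it, and all 7 of its cells held Lhfp and Sphkap. The cells with Ebf1 were all cultured cells without Gad1, of which Lhfp and Sphkap were each found in 12 of 12. Tcf4 was detected in all 10 cells with Cdh22 (phi 0.63) and in 13 of the 15 with Sphkap (0.60). Nhlh2 was found in all 7 cells with Tmem215 (0.61). Tfap2b ran the other way, with a phi of -0.51 for Cdh22 and -0.49 for Tmem215, and it was detected in all 11 cells with Gad1. A list of 17 genes held GABA-A and glycine receptor subunits and Gphn, which is not a receptor subunit. Of these, 7 were found in at least 3 cells, Gphn among them. With culture 5 were higher, again with Gphn (1.52) among them, and 0 were lower (median 1.26). With pSynapsin 2 were higher and 1 lower (median -0.05).

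The genes most like each member were those with the highest Pearson r of log2 signal over the 26 cells, given as a description, since the cells share depth and groups. For Tmem215 they were Pde1c (r = 0.93), a calmodulin-dependent phosphodiesterase, Rpp25 (0.91) and Fam189a1 (0.87). For Cdh22 they were Cdkn1a (0.83), a cell cycle inhibitor, Pde1c (0.79) and Tmem215 itself (0.78). For Ly6h they were Acsl4 (0.84), an enzyme that activates fatty acids, Grtp1 (0.79) and Enho (0.76). Pde1c was detected in 6 cells, the 5 with all 6 members and the cultured P5 pNdrg4 cell D3, at 2548 there and from 2812 to 14764 in the 5.

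Other genes were nearest to Lamp5, Lhfp and Sphkap, the members found in the most cells. Lamp5 was most like Camkv (0.83), a kinase-like protein of vesicles, Dab1 (0.79), an adaptor of reelin signalling, and Slc6a9 (0.76). Lhfp was most like Hspa4 (0.87), a heat shock protein, Nrxn3 (0.81), a presynaptic adhesion molecule, and Camkv (0.75). Sphkap was most like Ehd3, Oxr1 and Slc24a3, a sodium-calcium-potassium exchanger, each at 0.76. By this measure Slc6a9 was at rank 3 for Lamp5, rank 4 for Lhfp, rank 32 for Sphkap, rank 225 for Tmem215, rank 938 for Cdh22 and rank 2394 for Ly6h.

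Relatives of the members were sparse. Of the 24 Ly6 and uPAR genes measured, 19 were detected in no cell, and only Ly6h (9 cells) and Ly6e (7 cells) in 3 or more; Ly6e was higher in culture (1.48) and lower with pSynapsin (-1.05). Nicotinic receptor subunits, which some Ly6 proteins bind, were detected in at least 3 cells for 4 of 12 genes: Chrna3 in 3, Chrna4 in 4, Chrna7 in 3 and Chrnb2 in 7. Of these, 0 passed a difference of 1 either way with culture (median 0.00), and 3 were higher and 0 lower with pSynapsin (median 1.21): Chrna4 (1.94), Chrna7 (1.31) and Chrnb2 (1.12). No subunit could be found in every cell with Ly6h, since Chrnb2, the most widely detected, was in 7 cells and Ly6h in 9.

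Among 16 classical cadherins Cdh22 and Cdh2 were each detected in 10 cells, Cdh4 in 6, Cdh7 and Cdh11 in 5 each, and 10 in none. Cdh2 had a phi of 0.28 with Gad1 where Cdh22 had -0.36. Of the 5 found in at least 3 cells, 1 was higher with culture (Cdh7, 1.45) and 1 lower (Cdh11, -1.74), with a median of 0.02. With pSynapsin 1 was higher (Cdh22) and 1 lower (Cdh7, -1.22), with a median of 0.16. Beta-catenin (Ctnnb1), the partner through which cadherins reach the cytoskeleton, was detected in 25 of 26 cells, Ctnna2 in 15 and Ctnnd2 in 12. Of the 6 catenins found in at least 3 cells, 1 was higher with culture and 1 lower (median -0.42), and 0 were higher with pSynapsin and 1 lower (median -0.21).

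Lamp1 was detected in 23 cells and in all 15 without Gad1, Lamp2 in 4 and Cd68 in none. Lamp1 was higher in culture by 1.64 and differed by 0.01 between the P5 reporters. Of the 5 genes of the Lhfp family measured, Lhfpl4, a partner of GABA-A receptors, was detected in 12 cells, 9 of them without Gad1, and was higher in culture by 1.95. With the members counted, 2 of 3 LAMP genes and 2 of 2 Lhfp-family genes found in at least 3 cells were higher in culture, with medians of 1.64 and 2.92, beside 29.1% and a median of 0.38 over all genes.

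Among PKA anchoring proteins, beside Sphkap, Akap8l was detected in 18 cells, Akap8 and Akap11 in 17 each, Akap9 in 14 and Akap1 in 8. Phi values of these 5 for Gad1 ran from -0.40 (Akap1) to 0.01 (Akap9). Akap1 was found with Gad1 in 1 of its 8 cells, and Akap7 in 1 of 5. Of the 8 found in at least 3 cells, 3 were higher in culture (Sphkap at 5.05, Akap1 at 2.26, Akap9 at 1.04) and Akap11 was lower (-1.03), with a median of 0.31; with pSynapsin 3 were higher and 1 lower, with a median of 0.75. All 6 PKA subunits were detected in at least 3 cells, and 3 were higher in culture: Prkacb (2.91), Prkar1a (1.62) and Prkar2a (1.03), with a median of 0.56 over the 6. With pSynapsin 0 were higher and 1 was lower, Prkar1a (-1.02). Sphkap had the lowest phi with Gad1 in its list, but it was chosen for that relation, so nothing is read from its rank. Prkar2a had the lowest in the list of subunits, at -0.36.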

How the data were processed

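Per the labels' protocols, papain-dissociated single fluorescent cells were picked with a pipette, and oligo dT-primed cDNA of each was amplified by 35 cycles of PCR, labelled and hybridised. The authors deposited linear intensity values per probe set, for which the submitters' processing notes name MAS5, without a version. The mean of every array, trimmed by 2% at each end, was 500 in the deposited values, which were not scaled again. No detection calls were used. Precision is limited by the number of arrays, 1 to 10 cells in a group.

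Analysis was in Python 3.11.15 (pandas 2.3.3, numpy 2.4.6; scipy 1.17.1 for intervals; matplotlib 3.10.9 for plots), and the scripts were tested on simulated data. Of 45101 probe sets 34945 belonged to 1 gene, 932 to several and 9211 to none with a name, and 64 controls were left out; Entrez identifiers matched a current symbol for 34741, and 0 symbols were updated. Signals were raised to a floor of 200, log2 transformed and averaged by group, so differences against a group at the floor are too small. Shares over all genes cover those detected in at least 3 cells (7502). The 6 genes, and the family, receptor, kinase and transcription factor lists, were chosen with earlier results of these data known. Named by rule were the 6 genes, Gad1, Slc6a9, the 3 genes with the highest Pearson r for each, and list genes detected in at least 3 cells; other names were chosen after their values were seen. Genes of a list that no named probe set covers were not analysed here. Alternatives were detection at 500 and 2000, floors of 50 and 500, other ways to join probe sets, quantile normalization, group medians and leaving out each cell. The phi alternatives and those of the P8 reporter comparison were chosen after seeing the data.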

Additional observations from a re-analysis of the deposited data

Results flagged for a closer look

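In each group of 4 to 10 cells the highest and lowest cell were set against the rest by Dixon's gap ratio of floored log2 signals. Of the 18 combinations of gene and group, 4 passed its 95% critical value. That value assumes a normal spread, while many cells here lay at the floor, so the count is a description only. In the P5 pSynapsin group the cell E2 stood far below the other 3 for Ly6h, at a signal of 11.5 beside 24240.4 to 29447. The same cell stood below them for Cdh22, at 146 beside 27697 to 37492. Among the 10 cells for which no culture is stated (P5, pNdrg4), B1 was far above the others for Lhfp, at 63203 beside 2.40 to 363. In that group B4 was above the others for Sphkap, at 7324 beside 11.9 to 993. B1 and B4 were 2 of the 3 cells of the group without Gad1.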

How the results depend on the processing

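Of 102 recomputed counts of members 89 stayed within 1.5 times the reported count, and of 792 values for single genes 9 that were at least 1 in size changed sign and 7 moved by more than the spread between cells or, for counts of cells, by more than 1.5 times. Group medians gave 3 members higher with pSynapsin at P5, in place of 5, and turned Lamp5 to -0.26 there and to -0.44 between P8 and P5 pNdrg4 cells; they moved Lamp5 with culture from 2.85 to 7.22, Tmem215 with culture from 2.11 to 0.00 and Tmem215 between the P5 reporters from 2.34 to 5.66. Quantile normalization gave 5 members higher at P8 with pNdrg4, in place of 3, and 1 higher with pSynapsin at P8, in place of 2; the median over probe sets also gave 1 there, and left Tmem215 detected in 0 cells. The causes were not tested. With each cell left out in turn, members found in no cell with Gad1 numbered 1 to 2, those higher at P8 ran from 1 to 5 with pNdrg4 and from 0 to 3 with pSynapsin, and those higher with pSynapsin at P8 from 1 to 4. Differences between P8 and P5 pNdrg4 cells then ran from -0.78 to 5.80 for Ly6h and from -1.74 to 4.57 for Cdh22. With pSynapsin they ran from -5.27 to 1.49 for Ly6h, -5.45 to 1.89 for Cdh22 and -4.45 to 1.89 for Tmem215, and Tmem215 between the P8 reporters from -2.06 to 4.28. Phi with Gad1 stayed between -0.85 and -0.76 for Lamp5 and Lhfp over thresholds and cells left out. It ran from -0.76 to -0.52 for Sphkap, -0.55 to -0.498 for Tmem215, -0.44 to -0.33 for Cdh22 and -0.21 to -0.06 for Ly6h. No paired analysis was possible because each value is 1 cell, no animal is named and no test was run. Signals near or under 200 carry no order, so a gene called absent may be present at low level.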
